A study of Macaca mulatta with 14 samples.

Results

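Inflammatory chemokine ligands are small secreted proteins that draw leukocytes to sites of injury or infection. They are described here in PBMC, the mononuclear fraction of blood that holds lymphocytes and monocytes, of rhesus macaques (Macaca mulatta). Of 9 listed genes (CCL2, CCL3, CCL4, CCL5, CCL20, CXCL1, CXCL2, CXCL3 and CXCL8), 5 had a probe set annotated with their symbol alone: CCL2, CCL3, CCL5, CCL20 and CXCL8. The array table names 14132 genes in this way. The 5 members were covered by 9 of its 52865 probe sets, with 4 for CCL3, 2 for CCL5 and 1 for each of the others. The other 4 genes, CCL4, CXCL1, CXCL2 and CXCL3, were not analysed here under their own names. A single probe set carried the symbols of CXCL1 and CXCL3 together and therefore names neither. A further 2 probe sets carried the symbol CCL4L1, a gene for which the current RefSeq table of this species lists CCL4 as a synonym. Their values are given under the name CCL4L1, beside the members and outside their counts.

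The study compared 7 male animals on a control diet with 7 male animals on calorie restriction (CR), with 1 expression array for each animal. Control animals were 24 to 27 years old at blood collection and CR animals 24 to 30 years old. The design text puts calorie restriction at 16 years, which is taken to apply to the CR group. No batch was named in the labels. The question addressed is whether chemokine expression in blood cells of old animals differs between the diets.

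Chemokines are grouped by the spacing of their first cysteines into the CC and CXC families and act through receptors on leukocytes. CCL2 attracts monocytes through CCR2, whereas CCL3, CCL4 and CCL5 attract monocytes and T cells. CCL20 acts on CCR6, and CXCL8 attracts neutrophils through CXCR1 and CXCR2. Monocytes transcribe CCL2, CCL3, CXCL8 and related ligands within hours of activation through NF-kB, while CCL5 is a product of effector T cells and natural killer (NK) cells, which can also release CCL3 and CCL4.

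No member separated the diets. Of 8 member probe sets bright enough to be tested, 0 passed an adjusted p of 0.05 (limma, Benjamini-Hochberg over 26383 tested probe sets), where the share over the whole array was 0%. At an unadjusted p under 0.05 the count was also 0 of 8, against 5.12% of all tested probe sets. The lowest adjusted p among the members was 0.918 (limma). The values of the diets overlapped in all 8, and over the array they did not overlap in 0.0834% of probe sets. Taking the brightest tested probe set for each gene, 3 of 5 genes (CCL2, CCL3 and CXCL8) had a lower mean in CR and 2 (CCL5 and CCL20) a higher one, beside 51.9% of all probe sets below 0. The median difference of the 5 genes was -0.35 on the log2 scale, and that of all tested probe sets was -0.012. Without CR 6 and CR 7 the median was 0.26, and 1 of 5 genes was lower. These were the lowest arrays for CCL3 and CXCL8, and CR 6 was the lowest for CCL2. Leaving them out, with no low control left out, raises the CR means of these genes by construction. The median therefore depends on them, but the direction of this change is no result.

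**Figure D1:**
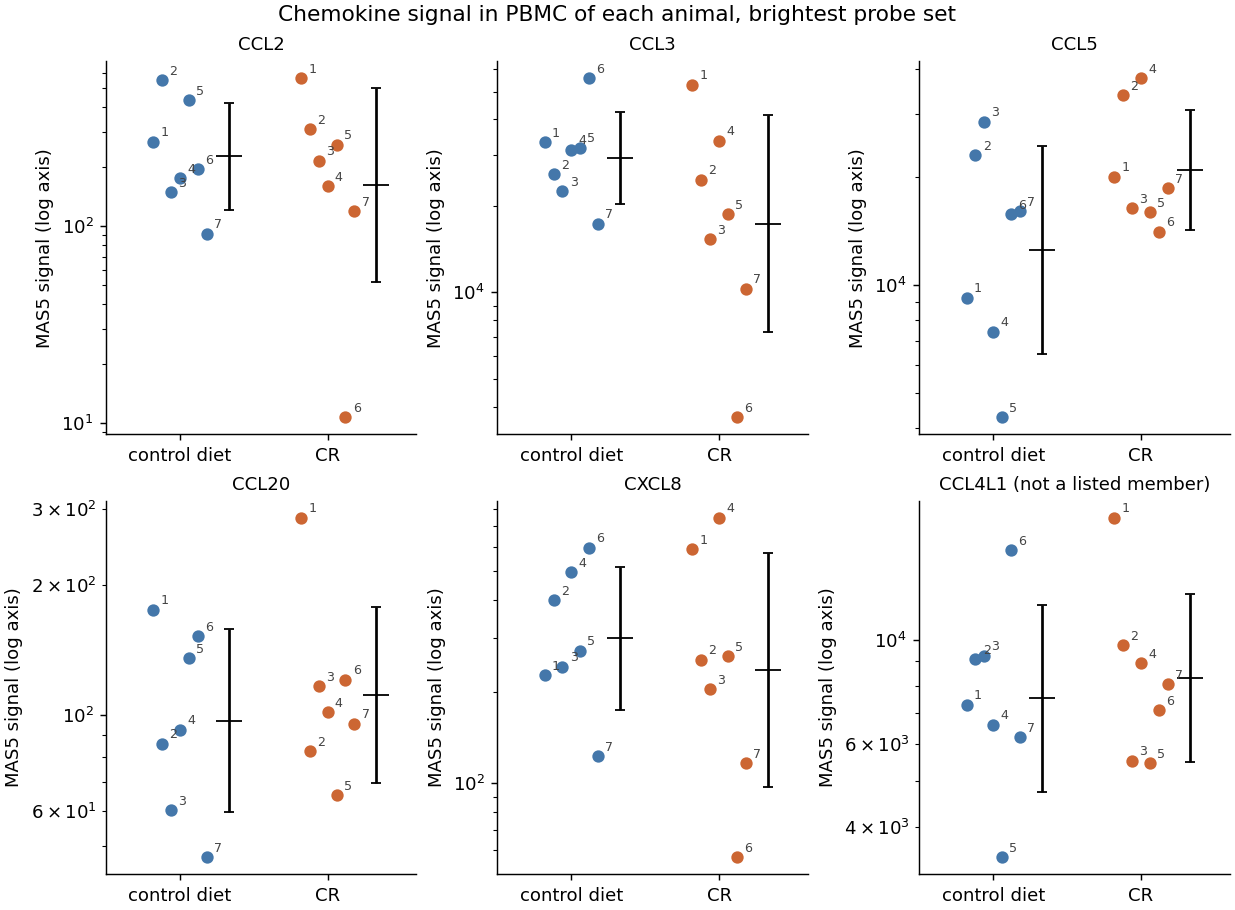
MAS5 signal on a log axis for the brightest probe set of the 5 measured members and of CCL4L1, with 1 point per animal and its replicate number beside it. The horizontal bar and whiskers give the mean ± SD of 7 log2 values, taken with signals under 16 set to 16. CR 6 was the lowest array for CCL2, CCL3 and CXCL8, and the diets overlap in every panel.

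The array results rest on the signal of whole PBMC samples, so fewer cells of a type and less RNA per cell cannot be told apart. The median correlation between arrays was 0.932 among controls and 0.919 among CR animals. Control 1 was lowest, with a median r of 0.879 with the other arrays, and CR 2 and CR 6 followed at 0.908 each. Marker lists were summed to describe the samples. The summed signal of 11 monocyte markers on the array ran from 40711 to 107855 in controls and from 13129 to 79895 in CR, and CR 6 and CR 7 had the lowest sums. For 15 NK and cytotoxic markers the sums were 96909 to 198941 in controls and 160256 to 299112 in CR, lowest in control 4 and control 5. No marker of either list was under a signal of 16 on all arrays. This also held for the T cell, B cell, neutrophil, platelet and erythroid lists, so it does not identify PBMC. Of 9 listed erythroid markers 4 had a probe set, and 1 of these, HBB, was bright enough to be tested.

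CCL3 is made by activated monocytes, NK cells and T cells and binds CCR1. Its brightest probe set had signals from 17345 to 55759 in controls, with a median of 31412. In CR the lowest was 3673, the median 18697 and the highest 52790. CR 6 and CR 7 were the lowest of all 14 arrays, control 6 and CR 1 the highest, and 2 of 7 CR values lay above the control median. The log2 mean was 14.84 ± 0.53 (SD, n = 7) in controls against 14.08 ± 1.25 in CR, which differ by -0.76 ± 0.43 (SE), or 0.592-fold with a 95% interval from 0.314 to 1.11. It did not pass (adjusted p = 0.918, limma), and without CR 6 the difference was -0.38, without CR 6 and CR 7 together -0.16.

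The other CCL3 probe sets followed the brightest one from animal to animal. The second differed by -0.57 ± 0.47 between diets and the third by -0.23 ± 0.42, and neither passed (adjusted p 0.927 and 0.962, limma). The fourth had a geometric mean signal of 75.8 in controls and 75.1 in CR, was under 16 on 3 arrays, and was too dim for the test. Over the 14 arrays the brightest and the second correlated at r = 0.916 (rho = 0.877), and the lowest r among the 6 pairs of CCL3 probe sets was 0.658. Near-identical copies of CCL3 exist in primates, and which copies each probe set detects was not tested.

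CCL5, which also binds CCR1, had the largest positive difference of the 5 genes, but its 2 probe sets disagreed. The brightest had signals from 4290 to 28456 in controls with a median of 15752, and from 14085 to 37681 in CR with a median of 18634. Control 5, control 4 and control 1 were the lowest of all arrays, CR 4 and CR 2 the highest, and 6 of 7 CR values were above the control median. The log2 mean was 13.61 ± 0.96 (SD, n = 7) in controls against 14.35 ± 0.55 in CR, which differ by 0.74 ± 0.36 (SE), or 1.67-fold with a 95% interval from 0.988 to 2.82. This did not pass (adjusted p = 0.918, limma), and the difference was 0.48 without control 5.

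The other CCL5 probe set had medians of 548 in controls and 550 in CR. Its signals ran from 281 to 852 in controls and from 300 to 740 in CR, so the CR values lay within the control range. The difference was -0.061 ± 0.27 (SE), and 4 of 7 CR animals exceeded the control median (adjusted p = 0.986, limma). Both probe sets ranked the animals alike, at r = 0.734 (rho = 0.723, permutation p 0.00209 and 0.00511, n = 14), and control 5 was lowest in both. Within each array the brightest stood above the other by 4.55 ± 0.48 log2 units (SD, n = 7) in controls and 5.35 ± 0.36 in CR. That gap was 0.80 larger in CR, which restates the difference between the values of the probe sets and is given as a description with no test.

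CCL2 recruits monocytes and is itself a monocyte product. Control signals ran from 91.5 to 549 with a median of 195, and CR signals from 10.7 to 564 with a median of 215. CR 6 was the lowest of all arrays, under the floor of 16 and set to it, CR 1 was the highest, and 4 of 7 CR values were above the control median. The log2 mean was 7.82 ± 0.90 (SD, n = 7) in controls and 7.34 ± 1.64 in CR. The difference of -0.48 ± 0.60 (SE) had a 95% interval from -1.74 to 0.79 and did not pass (adjusted p = 0.95, limma). Without CR 6 it was 0.081.

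CXCL8, the neutrophil attractant, ran from 122 to 595 in controls with a median of 272. In CR its signals ran from 57.1 to 748, with a median of 255. CR 6 and CR 7 were again the lowest of all arrays, and CR 4 and control 6 the highest, so the CR values spanned the whole control range. The log2 mean was 8.22 ± 0.78 (SD, n = 7) in controls against 7.88 ± 1.28 in CR, which differ by -0.35 ± 0.49 (SE) with a 95% interval from -1.37 to 0.68 (adjusted p = 0.952, limma). Without CR 6 the difference was -0.0080, and without CR 6 and CR 7 together it was 0.26.

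CCL20, which attracts CCR6-bearing lymphocytes and dendritic cells, was the dimmest tested member. Its signals ran from 47.1 to 175 in controls with a median of 92.7, and from 65.4 to 286 in CR with a median of 102. CR 1 stood above all other arrays and control 7 was the lowest. The log2 mean was 6.60 ± 0.70 (SD, n = 7) in controls against 6.80 ± 0.67 in CR, and the difference of 0.20 ± 0.36 (SE) did not pass (adjusted p = 0.963, limma). Without CR 1 it was -0.031. A probe set was tested from a mean log2 signal of 6.45, and that of CCL20 over all arrays was 6.70.

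CCL4L1 had signals from 3453 to 15507 in controls (median 7274) and from 5461 to 18209 in CR (median 8040) on its brightest probe set. The difference was 0.15 ± 0.30 (SE, n = 7 per diet), and its other probe set gave 0.076 ± 0.34. Neither passed (adjusted p 0.968 and 0.986, limma). Control 5 was lowest and CR 1 highest on both.

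**Figure D2:**
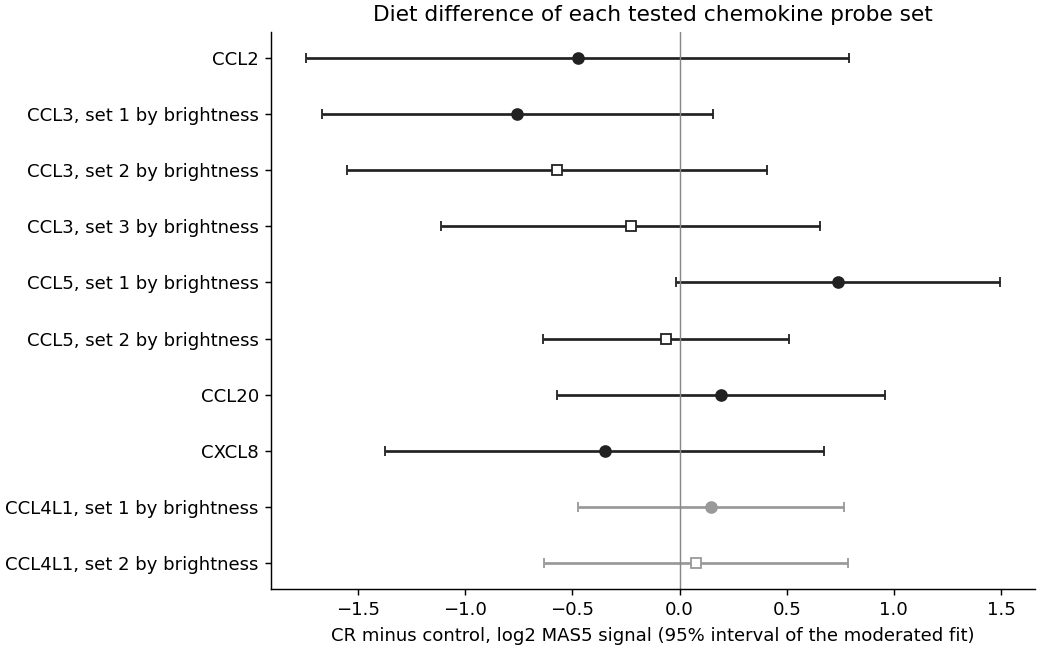
CR minus control on the log2 scale of MAS5 signal for the 8 tested member probe sets (black) and 2 of CCL4L1 (grey), with 95% intervals of the moderated fit over 7 arrays per diet. Circles mark the brightest probe set of a gene and squares its other sets. All intervals include 0, from CCL3 at -0.76 to CCL5 at 0.74.

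The members varied widely between animals on the same diet. The within-diet SD was 1.32 log2 units for CCL2, 1.06 for CXCL8, 0.96 for CCL3, 0.79 for CCL5 and 0.69 for CCL20, where the median of all tested probe sets was 0.47. CCL2 was more variable than 98.8% of all tested probe sets, CXCL8 than 95.7%, CCL3 than 93.2%, CCL5 than 85.7% and CCL20 than 79.1%. The CCL2 value includes CR 6 set to the floor, and the other CCL5 probe set was more variable than 63.5%. These ranks were not matched for brightness. CCL20 was brighter than 7.78% of all tested probe sets, CCL2 than 30.2%, CXCL8 than 39.5%, CCL5 than 98.4% and CCL3 than 98.9%. How much of the spread is measurement noise was not tested. From the lowest to the highest animal the signal spanned 15.2-fold for CCL3, 13.1-fold for CXCL8 and 8.78-fold for CCL5. For CCL2 the span was 35.3-fold with the lowest array at the floor. The SD was larger in CR than in controls for CCL2, CCL3 and CXCL8, and smaller for CCL5, and these differences in spread were not tested. The median SE of a diet difference was 0.43 for the 5 genes and 0.25 for all tested probe sets, so a difference of a given size was less precisely measured in these genes.

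Some members varied together. Of 10 pairs of member genes, 3 were correlated over the 14 animals after adjustment (permutation test, two-sided, adjusted over 10 pairs) by Pearson's r and 1 by Spearman's rho. CCL3 and CXCL8 had r = 0.893 and rho = 0.864 (adjusted permutation p 0.0003 and 0.0014), with r = 0.779 among controls and 0.956 among CR animals (n = 7 each, no test). Without CR 6 and CR 7, the arrays farthest from the CCL3 median, r was 0.766. CCL2 and CCL3 had r = 0.791 and rho = 0.552 (adjusted permutation p 0.017 and 0.179), and CCL2 and CXCL8 had r = 0.692 and rho = 0.499 (adjusted permutation p 0.0208 and 0.179). Without CR 1 and CR 6, the arrays farthest from the CCL2 median, these were 0.341 and 0.310, so their size depends on those animals. The narrower range of CCL2 can by itself lower r. Without either CR 1 or CR 6 alone, the pair of CCL3 and CXCL8 was the 1 pair that passed.

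CCL20 and CCL3 had r = 0.347 over all 14 animals and 0.750 without CR 6 and CR 7, with 0.851 among controls and 0.326 among CR animals. This pair did not pass over all 14 animals (adjusted permutation p = 0.515 for r). Nor did it pass without CR 6 alone (0.0973) or without CR 1 alone (r = 0.173, 0.821). On the 12 arrays without CR 6 and CR 7 the adjusted permutation p was 0.024 for r and 0.0438 for rho. Those left-out arrays are the farthest from the CCL3 median, so this subset is set by the same data and its p is a description. CCL5 had r from -0.263 to 0.138 against the other 4 genes over all animals. Within the diets the values differed in sign: with CCL3 r was -0.303 among controls and 0.601 among CR animals, with CXCL8 -0.066 and 0.651, and with CCL2 -0.275 and 0.385 (n = 7 each). The difference between the diets was not tested for these pairs. A set of 13 relations examined later held pairs of probe sets of the same gene and CCL4L1 with each member. In it CCL4L1 had r = 0.580 and rho = 0.587 with CCL5 (unadjusted permutation p 0.0310 and 0.0308, adjusted 0.0448 and 0.0445). With CCL3 it had r = 0.389 and rho = 0.455 (adjusted permutation p 0.183 and 0.136). Probe sets of the same gene had small p, which lowers the adjusted p of the other relations, so these are given as a description. Without control 5 and CR 1 the r of CCL4L1 with CCL5 was 0.381.

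**Figure D3:**
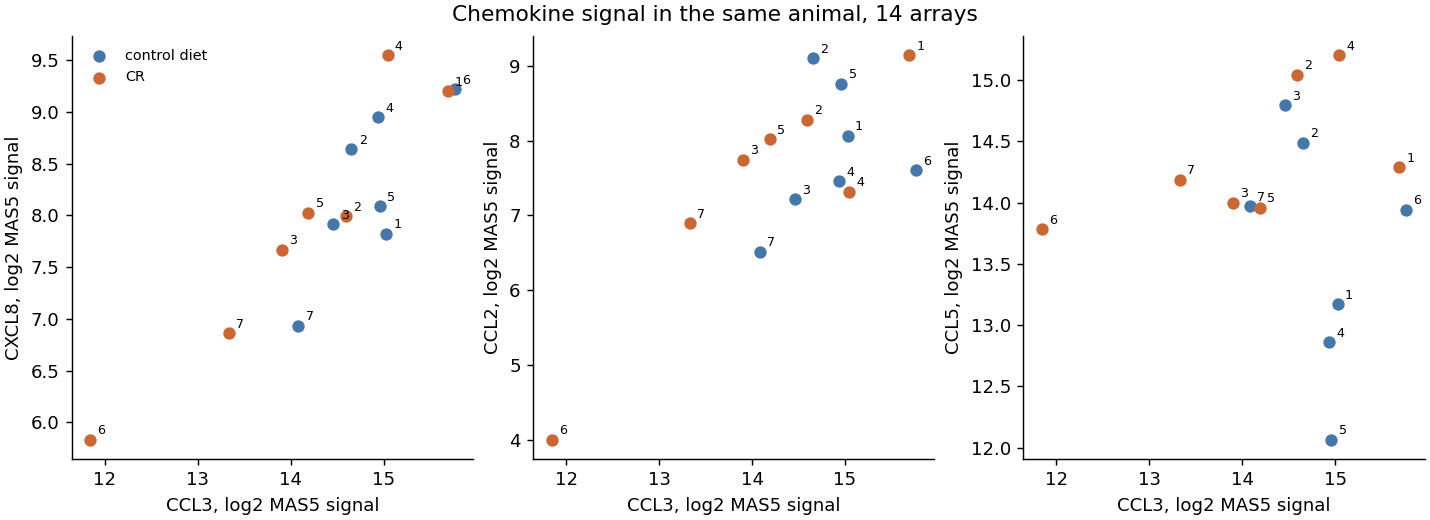
Log2 MAS5 signal of CXCL8, CCL2 and CCL5 against that of CCL3 in the same animal, with replicate numbers beside the points. CXCL8 follows CCL3 (r = 0.893), and CCL2 had r = 0.791 with CR 1 and CR 6 and 0.341 without them. CCL5 had r = -0.035 over all animals, -0.303 among controls and 0.601 among CR animals.

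Members moved with different cell type markers. Scores were the mean gene-centred log2 signal of each marker list, without the members, and 30 relations of 5 genes with 6 scores were examined. By Pearson's r 9 passed (permutation test, adjusted over 30), and by Spearman's rho 2 did, CCL2 with the neutrophil score and CXCL8 with the platelet score. The monocyte score correlated with CCL3 at r = 0.751 (rho = 0.618), with CCL2 at 0.735 (rho = 0.684) and with CXCL8 at 0.706 (rho = 0.710). Their adjusted permutation p were 0.0089, 0.0089 and 0.0167 for r and 0.0878, 0.0642 and 0.0525 for rho. Among controls these r were 0.182, 0.310 and 0.463, and among CR animals 0.882, 0.883 and 0.795 (n = 7 each). Without CR 6 and CR 7, the arrays farthest from the median score, they were 0.355, 0.459 and 0.355, so their size depends on those animals. The narrower range of the score can by itself lower r. CCL20 had r = 0.025 with this score and CCL5 -0.052.

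The neutrophil score, which shares its low arrays CR 6 and CR 7 with the monocyte score, had r = 0.835 with CCL2, 0.803 with CCL3 and 0.702 with CXCL8. Without those arrays these were 0.748, 0.368 and 0.247, and none of the 3 passed (adjusted permutation p 0.0756, 0.856 and 0.894). The platelet score had r = 0.828 with CXCL8 (rho = 0.771, adjusted permutation p 0.0039 and 0.0303) and 0.716 with CCL3. Without CR 1 and CR 6 these were 0.682 and 0.379. CXCL8 had r = 0.471 with this score among controls and 0.946 among CR animals. Without CR 6 and CR 7 its r was 0.638 and did not pass (adjusted permutation p 0.281 for r and 0.300 for rho). Without CR 6 alone it did not pass either (adjusted permutation p 0.0595 and 0.137). All 10 tested monocyte markers had a lower mean in CR (median difference -0.43), as did all 8 tested neutrophil markers (median -0.45). Over all tested probe sets this share was 51.9%. The monocyte score ran from -0.96 to 0.95 in controls and from -1.63 to 0.89 in CR. The neutrophil score ran from -0.048 to 0.90 in controls and from -1.58 to 0.95 in CR. CR 6 and CR 7 were lowest in both scores, and the lists were not recounted without them. With the monocyte score as a covariate the diet difference was -0.30 for CCL3, 0.17 for CCL2 and 0.15 for CXCL8. The part of platelet and neutrophil RNA in these differences was not tested. The 8 tested genes of the neutrophil score included S100A8, S100A9, S100A12 and CSF3R. Whether neutrophils or monocytes gave their signal in PBMC was not tested.

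CCL5 moved with the NK and cytotoxic score at r = 0.770 and rho = 0.512 (adjusted permutation p 0.0089 and 0.159). Its correlation was 0.903 among controls and -0.035 among CR animals (n = 7 each), and the difference between the diets was not tested. Control 5, control 4 and control 1 were low in both. Without control 4 and control 5, the arrays farthest from the median score, r was 0.427, so its size depends on them. Leaving out such arrays narrows the range of the score, which by itself can lower r. Of 14 tested NK and cytotoxic markers, 11 had a higher mean in CR and 3 a lower one (median difference 0.24). Over all tested probe sets 51.9% had a lower mean in CR. The score ran from -0.53 to 0.16 in controls and from -0.077 to 0.32 in CR. With the monocyte and NK scores as covariates the diet difference of CCL5 was -0.012 on its brightest probe set and -0.58 on the other, which was at -0.061 without covariates.

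**Figure D4:**
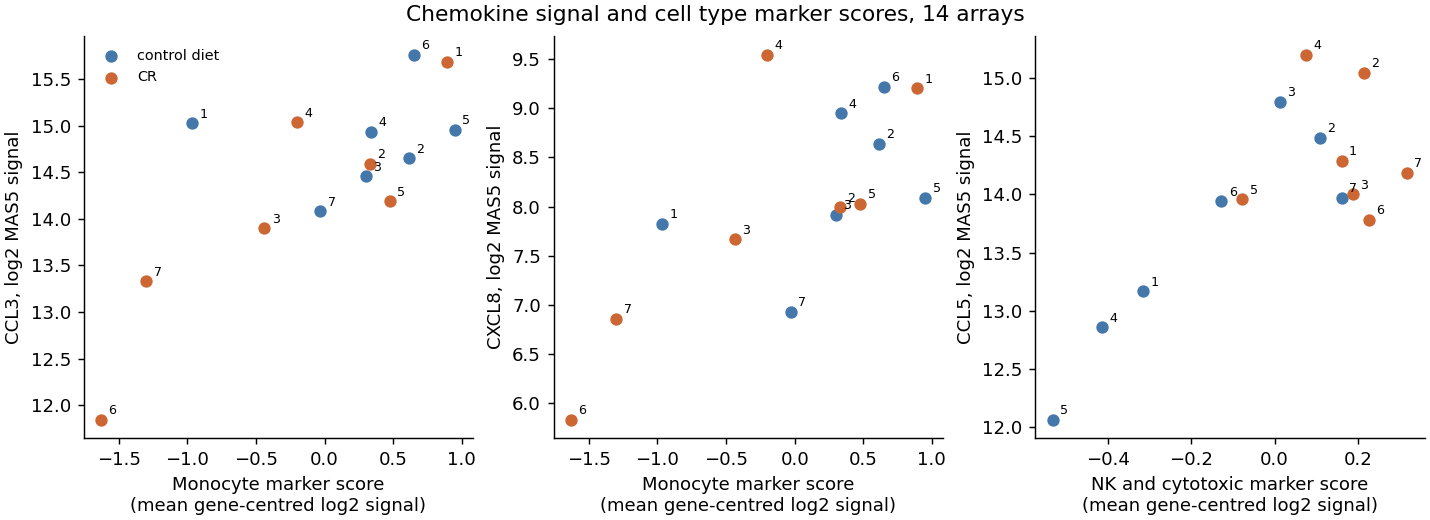
Log2 MAS5 signal of CCL3 and CXCL8 against the monocyte marker score and of CCL5 against the NK and cytotoxic marker score, with 1 point per animal. CR 6 and CR 7 are lowest for the monocyte score and for CCL3 and CXCL8, and control 1, control 4 and control 5 are lowest for CCL5 and the NK score.

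CCL3, CCL5 and CCL4L1 were set against each other within each animal. In controls the log2 signal of CCL5 minus that of CCL3 was -1.23 ± 1.23 (SD, n = 7), from -2.89 to 0.34. In CR it was 0.27 ± 1.02, from -1.40 to 1.94. All 7 CR values were above the control median, 3 were above every control, and the groups overlapped. The difference was 1.50 ± 0.60 (SE, two-sided exact permutation p = 0.0245, and 0.0734 adjusted over the 3 pairs), so it did not pass. Among the alternatives it passed only without control 3 (1.76, adjusted exact p = 0.042) and without CR 1 (1.77, adjusted exact p = 0.0498). The highest values were those of CR 6 (1.94) and CR 7 (0.85). Without CR 6 and CR 7 together the difference was 1.04 and did not pass (adjusted exact p = 0.148). With the other CCL5 probe set it was 0.70 (adjusted exact p = 0.292), and with the mean of each gene's probe sets 0.86 (adjusted exact p = 0.215).

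Against CCL4L1, CCL5 differed by 0.59 ± 0.35 between diets (SE, adjusted exact permutation p = 0.122), and CCL3 by -0.90 ± 0.46 (adjusted exact permutation p = 0.0953). Neither passed. CCL3 against CCL4L1 was at -0.57 without CR 6 and at -0.36 without CR 6 and CR 7. CCL5 against CCL4L1 was at 0.79 without CR 1 and passed (adjusted exact p = 0.0498), and with the other CCL5 probe set it was -0.21. Earlier results of these data were known when these 3 pairs were chosen, and the smallest p that the 3432 splits allow is 0.000583.

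**Figure D5:**
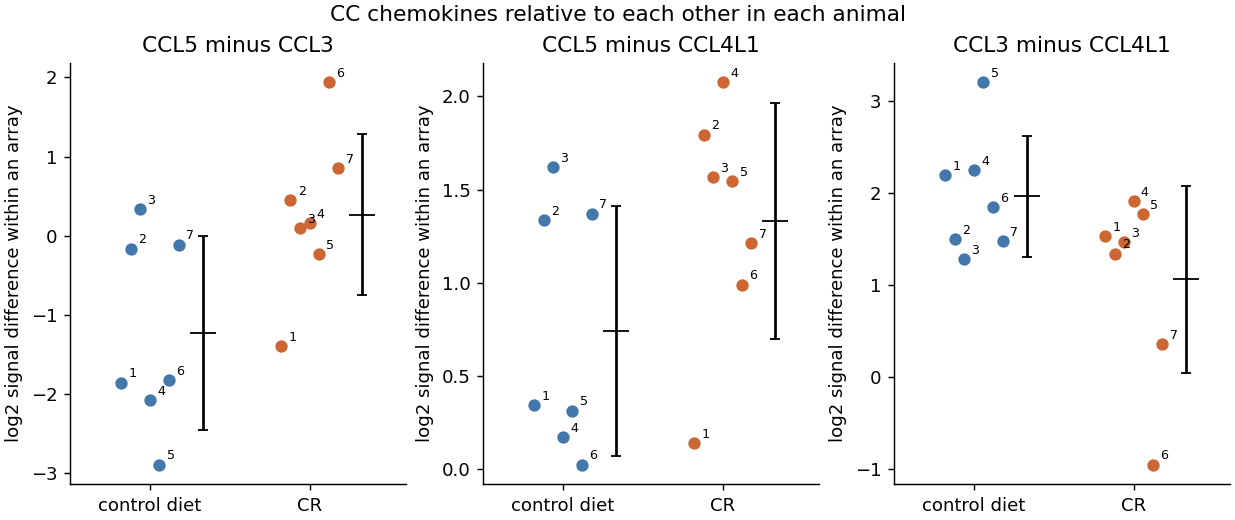
Log2 signal of one CC chemokine minus another on the same array, with 1 point per animal and the mean ± SD of 7 arrays per diet. CCL5 minus CCL3 averaged -1.23 in controls and 0.27 in CR, with overlap, and the CCL3 minus CCL4L1 panel shows CR 6 and CR 7 below all other arrays. A level of 0 has no meaning of its own, because signals of different probe sets are not on 1 scale.

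Receptors of these ligands did not separate the diets either. Of 10 listed receptors, 5 were tested: CCR1, CCR3, CCR6, the scavenging receptor ACKR1 and CCRL2. A lower mean in CR was found in 4 of 5, beside 51.9% of all tested probe sets. Of these receptors 0 passed, and the median difference was -0.13. The median was 0.030 without CR 5 and -0.22 without CR 3. The smallest unadjusted p belonged to CCR3, a receptor of CCL5 on eosinophils and basophils, at -0.29 ± 0.37 (SE), and to CCRL2 at 0.17 ± 0.22. CCR3 was at -0.043 without CR 6, at -0.11 without control 3 and at -0.48 without CR 5. CCRL2 ran from 0.099 without CR 5 to 0.30 without CR 6. CCR2, CXCR1 and CXCR2 were not among the tested probe sets.

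Of 33 other chemokine ligands 14 were tested, and 0 passed. A lower mean in CR was found in 9 of 14, beside 51.9% of all tested probe sets. Their median difference was -0.12, and it was -0.025 without CR 6 and 0.0052 without CR 6 and CR 7. CXCL12, which retains leukocytes in bone marrow, differed by -0.86 ± 0.42 (SE, adjusted p = 0.918, limma), and another of its probe sets gave -0.50 ± 0.52. CCL8, a relative of CCL2, differed by -0.63 ± 0.44. Without CR 3 CXCL12 was at -0.52 and CCL8 at -0.26. PF4 and PPBP, CXC chemokines of platelets, differed by -0.30 ± 0.33 and -0.058 ± 0.42. Both are named after their values were seen.

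Cytokines and receptors that induce these chemokines had a lower mean in CR in 11 of 11 tested genes, of 20 listed. Over all tested probe sets this share was 51.9%. CD14 is both in this list and among the monocyte markers, so those counts overlap. The inducers had a median difference of -0.40, and 0 passed. The median was -0.037 without CR 6 and CR 7. OSM (oncostatin M, a cytokine of activated monocytes and T cells) had a median signal of 1428 in controls and 833 in CR. Its difference was -0.93 ± 0.32 (SE, adjusted p = 0.918, limma), and 0 of 7 CR animals exceeded the control median, but another probe set gave -0.022 ± 0.38. Without CR 6 and CR 7 the difference of OSM was -0.45. IL1B, the monocyte cytokine interleukin-1 beta, differed by -0.64 ± 0.44, and by 0.083 without CR 6 and CR 7. Its other probe sets gave -0.84 ± 0.67 and -0.98 ± 0.79.

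Of 16 tested NF-kB subunits and target genes, 10 were lower in CR on average, beside 51.9% of all tested probe sets. Their median difference was -0.10. The median was 0.030 without CR 7 and 0.090 without CR 6 and CR 7. NFKBIZ, a nuclear regulator of NF-kB, differed by -0.50 ± 0.29 and SOD2 by -0.52 ± 0.32, and 0 passed. Another probe set gave -1.48 ± 0.76 for NFKBIZ, and another gave -0.14 ± 0.20 for SOD2. Without CR 6 and CR 7 NFKBIZ was at -0.13 and SOD2 at -0.26. Among 8 tested proteins that control the decay of such mRNAs, 4 were lower and 4 higher, with a median of 0.019. ELAVL1, which stabilises AU-rich mRNAs, differed by 0.91 ± 0.35, and all 7 CR animals exceeded the control median. ZFP36L1, which promotes their decay, differed by -0.43 ± 0.18 with 1 of 7, and its other 3 probe sets gave from -0.56 to -0.025. Neither passed (adjusted p = 0.918 each, limma).

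For each member the most similar genes were taken by Pearson's r of log2 signal over the 14 arrays, among 9355 genes. The highest r of many candidates is a description only. CCL3 was most like NLRP3 (r = 0.958), the inflammasome sensor, PTX3 (0.945), a pentraxin of innate immunity, and PIM3 (0.926), a kinase. CXCL8 was most like CA13 (0.940), SRP68 (0.917) and NLRP3 (0.903). The rank correlations with NLRP3 were 0.952 for CCL3 and 0.886 for CXCL8, and r with NLRP3 within controls was 0.932 and 0.851. CCL2 was most like LOC704450 (0.940), SMCR8 (0.898) and the myeloid inhibitory receptor LILRB4 (0.876).

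CCL5 was most like SMYD2 (0.922), IDH3G (0.908), a subunit of mitochondrial isocitrate dehydrogenase, and RPN2 (0.901). CCL20 was most like ERGIC1 (0.915), GFPT2 (0.806) and ADCY7 (0.798). NLRP3, the 1 gene shared by the lists of CCL3 and CXCL8, differed between diets by -0.82 ± 0.55 (SE) and PTX3 by -1.51 ± 0.84 (adjusted p 0.924 and 0.918, limma), without passing.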

How the data were processed

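Total RNA of PBMC was extracted with Trizol and labelled as biotinylated cRNA for Affymetrix arrays, per the labels. The authors deposited linear signal intensities made with MAS5, per the submitters' processing notes, and the values show a common trimmed mean on every array. The version of MAS5 and any detection calls or filters are not given in these sources. Gene symbols came from the platform annotation, and all 9 member probe sets had an Entrez ID in the RefSeq table of assembly T2T-MMU8v2.0.

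Intensities under 16 were set to 16 and log2 was taken. Without 99 control probe sets, the 50% with the higher mean were compared between diets in R 4.3.3 using limma 3.58.1 (lmFit, eBayes with trend, two-sided, no covariate). Adjustment was by Benjamini-Hochberg over 26383 probe sets, and the test was checked on simulated arrays. The number of arrays, 7 per diet, limits the precision. A gene is represented by its brightest tested probe set. Single values were tested by exact permutation over 3432 splits, and correlations by permutation with 100000 resamples. Correlations between probe sets of a gene or with CCL4L1, and the gap between the CCL5 probe sets, were added after seeing the data.

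The members and lists were chosen with earlier results of these data known. Named genes are all members, the 2 genes of each pathway list with the smallest p, and the 3 genes most like each member. PF4 and PPBP were named outside this rule, after their values were seen. The replicate numbers in the titles were not used as pairs in the main fit, and whether they pair animals could not be decided. The planned comparison with CCL4 used CCL4L1. Alternatives covered the floor, filter, scaling, model, covariates, probe set choice and left-out arrays.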

Additional observations from a re-analysis of the deposited data

Results flagged for a closer look

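Dixon's test was applied to 60 groups of 7 values, of which chance flags about 1 in 20, and it marked 2. The CCL20 log2 signal of CR 1 was 8.16, and the next CR animal was at 6.92. The neutrophil score of control 2 was 0.90, and the next control was at 0.32.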

How the results depend on the processing

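In the 29 alternative fits 0 probe sets passed, members included, and the smallest adjusted p over the array ran from 0.085 to 0.994 (limma). Testing the brightest 25% left 2 members, CCL3 and CCL5, with 1 lower in CR, 0 of 1 pair correlated and 3 of 8 score relations, because fewer genes were tested. With the monocyte score as covariate 1 member was lower, and CCL2 (0.17), CXCL8 (0.15) and the dimmest tested CCL3 probe set (0.18) turned sign. With monocyte and NK scores CCL2 (0.34), CXCL8 (0.39), CCL5 (-0.012), CCL4L1 (-0.18), the second brightest and dimmest tested CCL3 probe sets (0.15 and 0.23), IL1B (0.11), NFKBIZ (0.032) and SOD2 (0.035) turned. Without CR 6 and CR 7, 1 member was lower, 1 score relation passed (CCL5 with the NK score), and CCL2 (0.28), CXCL8 (0.26), the dimmest tested CCL3 probe set (0.11) and IL1B (0.083) turned. Array weights gave -0.072 for CCL4L1. The other CCL5 probe set, an alternative chosen after seeing the data, gave -0.061 for CCL5 and -0.21 for CCL5 against CCL4L1. The cause of these changes was not tested. Leaving out 1 array at a time gave 1 to 3 pairs, 1 to 9 score relations, 2 to 4 lower members, 1.22 to 1.77 for CCL5 against CCL3 and 0.47 to 0.79 against CCL4L1. Differences ran from -0.78 to 0.081 for CCL2, -0.031 to 0.34 for CCL20, -0.043 to 0.32 for CCL4L1 (-0.10 to 0.25 on its other probe set), -0.22 to 0.068 for the other CCL5 set and -0.56 to 0.028 for the dimmest tested CCL3 set. Same-numbered arrays of the diets had correlated deviations over 0.1 in 4 of 7 pairs, and 1 control matched its own number best. Paired animals need not share such deviations, so this cannot decide whether the numbers pair animals. With the replicate block 0 probe sets passed (CCL3 -0.76, adjusted p 0.788, limma), and no call changed. Dim signal limits CCL20, close to the filter, and CCL2 in CR 6, at the floor.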
